A study of Mus musculus with 24 samples.

Results

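The genes described are 38 markers of microglia, the resident macrophages of the brain, and of other macrophages, followed through wild-type mouse cerebellum and cerebellar tumours. They were taken from a fixed list of names: every probe set of the array whose only platform gene symbol was on the list was used, and the probe sets of a gene were summarised to 1 value per array. All 38 names were found among the 20893 genes of the array, through 421 probe sets, from 2 to 33 per gene. They comprise 7 homeostatic microglia genes, 8 genes of phagocytic macrophages, 4 markers of perivascular and blood-derived macrophages, 15 general myeloid genes and 4 genes of leukocytes in general.

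Homeostatic microglia survey healthy tissue and are known for purine and chemokine receptors such as P2ry12 and Cx3cr1, which fall when the cells become activated. Phagocytic microglia and macrophages that clear debris raise lysosomal, lectin and scavenger genes such as Cd68, Clec7a and Msr1. In the cerebellum microglia are sparse compared with the dense granule neurons, and tumours of the cerebellum are known to hold microglia and blood-derived macrophages together.

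The study compared RNA of whole tissue on Affymetrix expression arrays, 1 sample per array. The adult group had 5 wild-type cerebella: numbers 1 and 2 from postnatal day 60 and number 5 from an adult without a stated day, of mixed C57BL/6 x 129 background, and numbers 3 and 4 from C57BL/6 mice of postnatal days 95 and 122. The developing group had 3 wild-type C57BL/6 cerebella, 1 each of embryonic day 15, embryonic day 18 and postnatal day 0, so its spread includes age. The 8 hGFAP:GnasCKO and the 8 Oligo1:GnasCKO cerebellar tumours came from mice of mixed C57BL/6 x 129 background, were dissected at endpoint and are labelled as biological replicates; their ages are not stated. The names stand for a conditional deletion of Gnas, which encodes the stimulatory G protein alpha subunit, in cells reached by the named driver. The hGFAP driver, the human GFAP promoter, is active in neural progenitors of the developing brain. The labels do not describe the Oligo1 driver further, and neither is named for a myeloid gene. The normal samples carry no deletion. Every sample was bulk tissue, in which fewer cells of a type and less RNA per cell cannot be told apart. Where the labels do not name separate animals, as in the adult group, p-values measure only the spread between these samples.

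Gnas was lower in the tumours (mean log2 intensity 8.16 ± 0.73, SD, n = 8, for hGFAP and 7.82 ± 0.54, SD, n = 8, for Oligo1) than in adult cerebellum (9.79 ± 0.07, SD, n = 5). The array of hGFAP tumour 5 stood apart, with 7903 genes above the table median against 8774 to 9362 on the other arrays. Its mean over 6 granule precursor and tumour genes was 7.15, against 10.09 to 11.13 in the other 7 hGFAP tumours and 5.93 to 6.15 in adult cerebellum. Its mean over 8 genes of mature cerebellar neurons was 11.13, against 7.51 to 10.64 in the other 7 and 11.52 to 11.72 in adult cerebellum. It was kept, and some results are also given without it. The hGFAP differences from adult cerebellum given for single genes and for list medians all include it. Oligo1 tumours 3 and 4 stood apart in lymphocyte genes: the mean of 4 B cell genes was 6.53 and 7.52 there and at most 5.26 in the other 6 Oligo1 tumours.

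Most microglia and macrophage genes were called higher in the tumours than in adult cerebellum, and the phagocytic genes had larger differences than the homeostatic ones. A gene was called where limma's adjusted p (Benjamini-Hochberg over all genes tested) was under 0.05. Testing was limited to genes above a log2 intensity of 7.61, the median of the whole table, on at least 3 arrays, which 29 of the 38 members passed; since a gene can pass through the tumour arrays alone, counts without the filter are given for all 38. In the hGFAP tumours 28 of 29 members were called higher than in adult cerebellum and 0 lower, where 24.2% of the 10983 genes tested were called higher. Without the filter 33 of 38 were called higher and 0 lower, also 0 lower at an unadjusted p under 0.05, against 15.7% of 20893 genes called higher. In the Oligo1 tumours 26 of 29 were called higher and 0 lower against 35.8% of genes called higher; without the filter 29 of 38 were higher and 1, Siglech, was lower, against 23.4% higher and 26.1% lower among all genes. At an unadjusted p under 0.05, 2 of 38 were lower in the Oligo1 tumours. The 2 tumour groups were set against the same 5 adult arrays, so their differences are not independent.

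The median difference over the 38 members was 1.63 on the log2 scale in hGFAP tumours and 1.78 in Oligo1 tumours, beside medians of -0.02 and -0.06 over all 20893 genes. At least a 2-fold difference was measured for 30 members in hGFAP and 27 in Oligo1 tumours. The share of all genes with a difference of that size was not computed. The arrays did not overlap with the adult ones for 13 of 38 members in the hGFAP group, beside 4.07% of all genes, and for 27 of 38 in the Oligo1 group, beside 16.0%. With hGFAP tumour 5 left out, every array of the other 7 lay above every adult array for 34 of 38 members, beside 14.0% of all genes. Limma again called 28 members higher in that fit, for which the share of all genes called is not given here. In all 16 tumours every array lay above all 8 normal arrays for 10 members, beside 0.689% of all genes: Gpnmb, Lgals3, Clec7a, Cd5l, Irf8, Aif1, Itgb2, Fcer1g, Ptprc and Cd52.

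**Figure D1:**
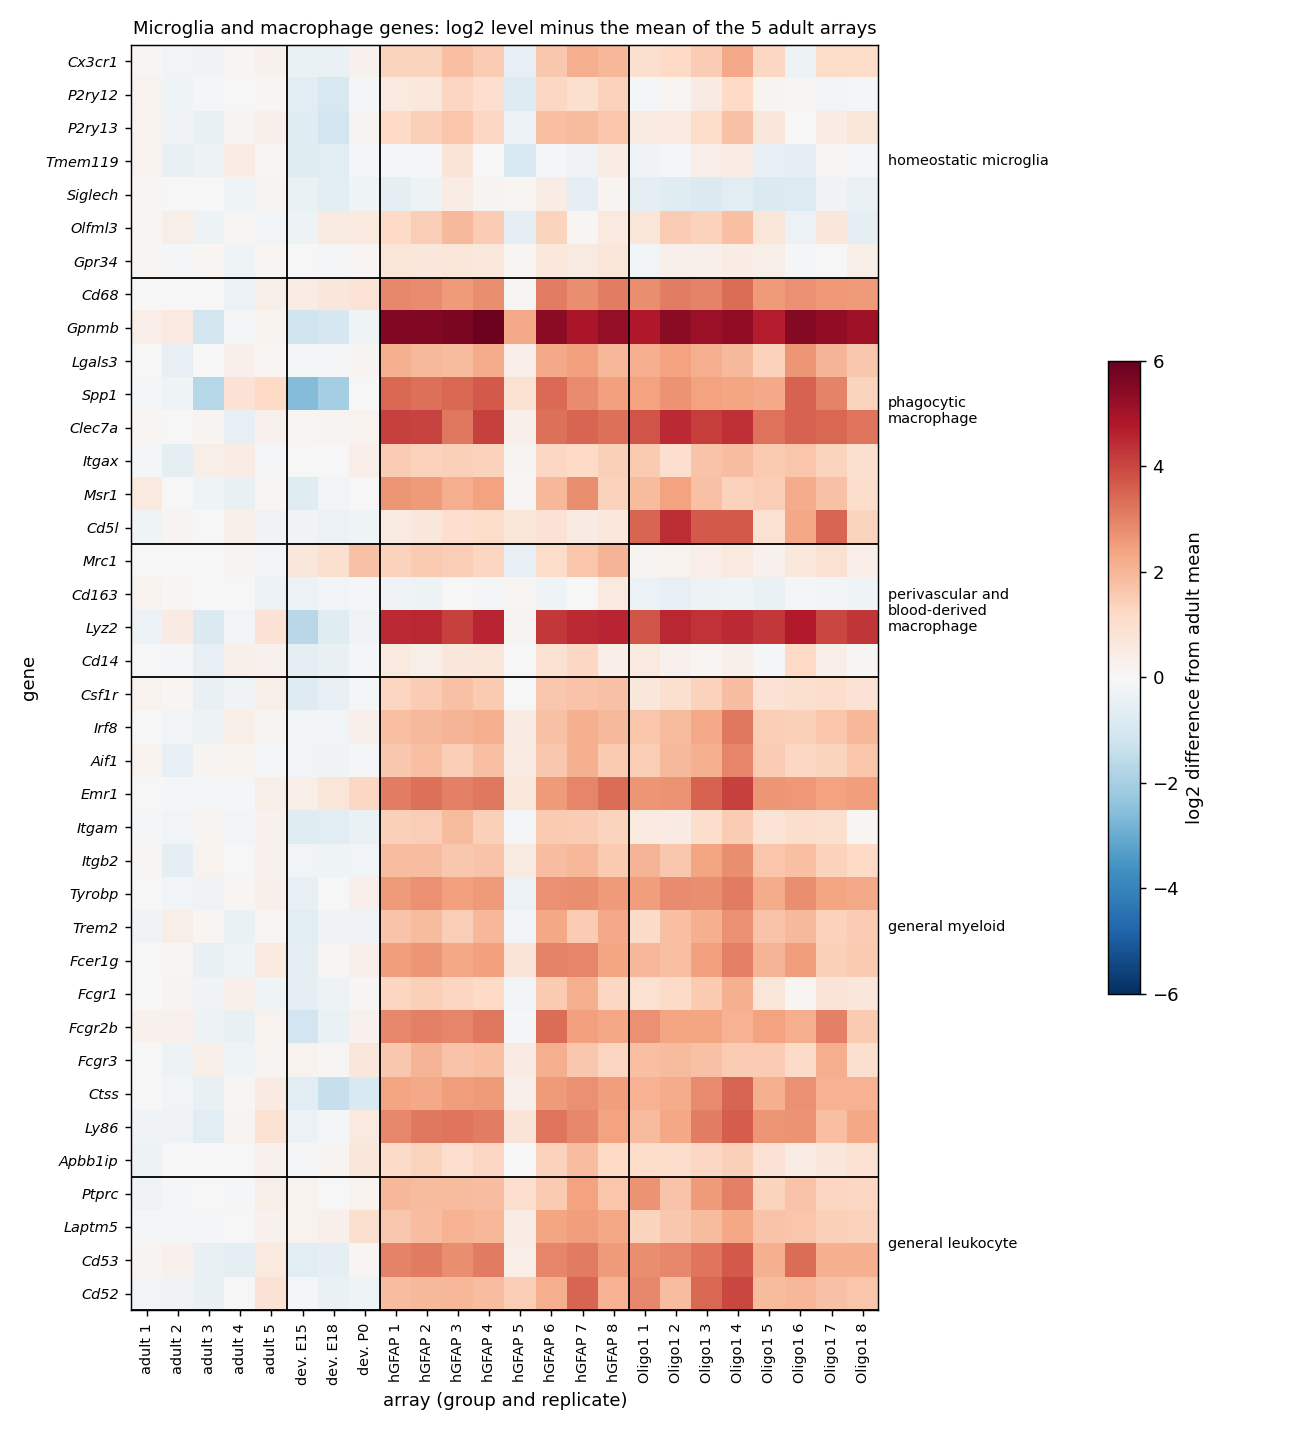
Each row is a member gene, grouped by list, and each column an array; colour gives the log2 level minus the mean of the 5 adult arrays, from blue (lower) to red (higher). Gpnmb and Lyz2 have the deepest red across the tumours, the Tmem119, Siglech and Cd163 rows stay pale, and the column of hGFAP tumour 5 is close to the adult columns.

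The homeostatic genes differed modestly in hGFAP tumours and less in Oligo1 tumours. Of the 7, 4 passed the filter. All 4 were called higher in hGFAP tumours and 2 in Oligo1 tumours, beside 24.2% and 35.8% of all genes tested. The median difference over the 7 was 0.79 and 0.21. Without the filter 4 of 7 were called higher in hGFAP tumours, beside 15.7% of all genes. In Oligo1 tumours 1 was called higher and 1 lower, beside 23.4% and 26.1%, so the Oligo1 counts were not far from those of all genes. The same shares apply to the counts against adult cerebellum of the lists below.

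Cx3cr1, the receptor for the neuronal chemokine fractalkine, measured 7.14, 6.89, 6.88, 7.16 and 7.32 in adult cerebellum. In hGFAP tumours it had a lowest level of 6.60, a median of 8.64 and a highest of 9.28, and in Oligo1 tumours a lowest level of 6.77, a median of 8.25 and a highest of 9.34. All tumours but hGFAP tumour 5 and Oligo1 tumour 6 (6.77) lay above every adult array, and those 2 lay below. The differences from adult cerebellum were 1.42 ± 0.36 (SE) in hGFAP tumours (limma, adjusted p = 0.00214) and 1.14 ± 0.36 (SE) in Oligo1 tumours (adjusted p = 0.00684).

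P2ry13, an ADP receptor next to P2ry12 in the genome, had adult levels of 7.98, 7.55, 7.33, 7.91 and 8.05. It had a lowest level of 7.39, a median of 9.30 and a highest of 9.65 in hGFAP tumours, and a lowest level of 7.76, a median of 8.40 and a highest of 9.53 in Oligo1 tumours. The hGFAP tumours other than number 5 were all above the adult range, and 1 Oligo1 tumour, number 6, lay within it. The differences were 1.31 ± 0.32 (SE) (limma, adjusted p = 0.0016) and 0.73 ± 0.32 (SE) (adjusted p = 0.0443), and the call in Oligo1 tumours was lost in 16 of 40 alternative settings, among them the fit without Oligo1 tumours 3 and 4 (0.50).

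P2ry12, the ADP receptor through which microglial processes find injured sites, measured 7.57, 7.13, 7.31, 7.38 and 7.44 in adult cerebellum. Across the 8 hGFAP tumours there was a lowest level of 6.58, a median of 8.33 and a highest of 8.74, and across the 8 Oligo1 tumours a lowest level of 7.22, a median of 7.44 and a highest of 8.55. Of the Oligo1 levels 6 lay within the adult range and those of tumours 3 and 4 above it. P2ry12 was called higher in hGFAP tumours, by 0.79 ± 0.28 (SE) (limma, adjusted p = 0.0209), and the Oligo1 difference of 0.21 ± 0.28 (SE) did not pass (adjusted p = 0.517).

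Olfml3, a secreted glycoprotein that microglia make along with other cells, measured 8.83, 9.10, 8.48, 8.85 and 8.61 in adult cerebellum. Tumours of the hGFAP group had a lowest level of 8.21, a median of 10.04 and a highest of 10.70, and those of the Oligo1 group a lowest level of 8.22, a median of 9.52 and a highest of 10.58. Levels in both tumour groups reached from below the lowest adult array to well above the highest. The difference was 0.95 ± 0.39 (SE) in hGFAP tumours (limma, adjusted p = 0.046), a call lost in 20 of 40 alternative settings, and 0.74 ± 0.39 (SE) in Oligo1 tumours (adjusted p = 0.097), which did not pass. None of its 4 probe sets was called on its own in either comparison.

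The other 3 homeostatic genes were dim and did not pass the filter. Tmem119, a membrane protein used to tell resident microglia from blood-derived cells, ranged from 6.34 to 7.23 in adult cerebellum, 5.87 to 7.54 in hGFAP and 6.22 to 7.23 in Oligo1 tumours, with overlapping groups and differences of -0.02 and -0.07. Siglech, a sialic acid binding lectin of microglia, ranged from 6.31 to 6.72 in adult cerebellum and 6.02 to 7.01 in hGFAP tumours; in Oligo1 tumours it ranged from 5.68 to 6.37, and 7 of the 8 lay below every adult array. Tested without the filter, the Siglech difference was -0.64 ± 0.16 (SE) in Oligo1 tumours (limma, adjusted p = 0.00187) and -0.01 in hGFAP tumours (adjusted p = 0.974). Of its 8 probe sets only 1 passed the filter. On its own that probe set was not called against adult cerebellum (-0.72 in Oligo1 and 0.25 in hGFAP tumours) or between the tumour groups (0.97). Gpr34, a receptor for lysophosphatidylserine, was higher in hGFAP tumours by 0.60 ± 0.12 (SE) without the filter (limma, adjusted p = 0.000314); its Oligo1 difference was 0.18 (adjusted p = 0.197).

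**Figure D2:**
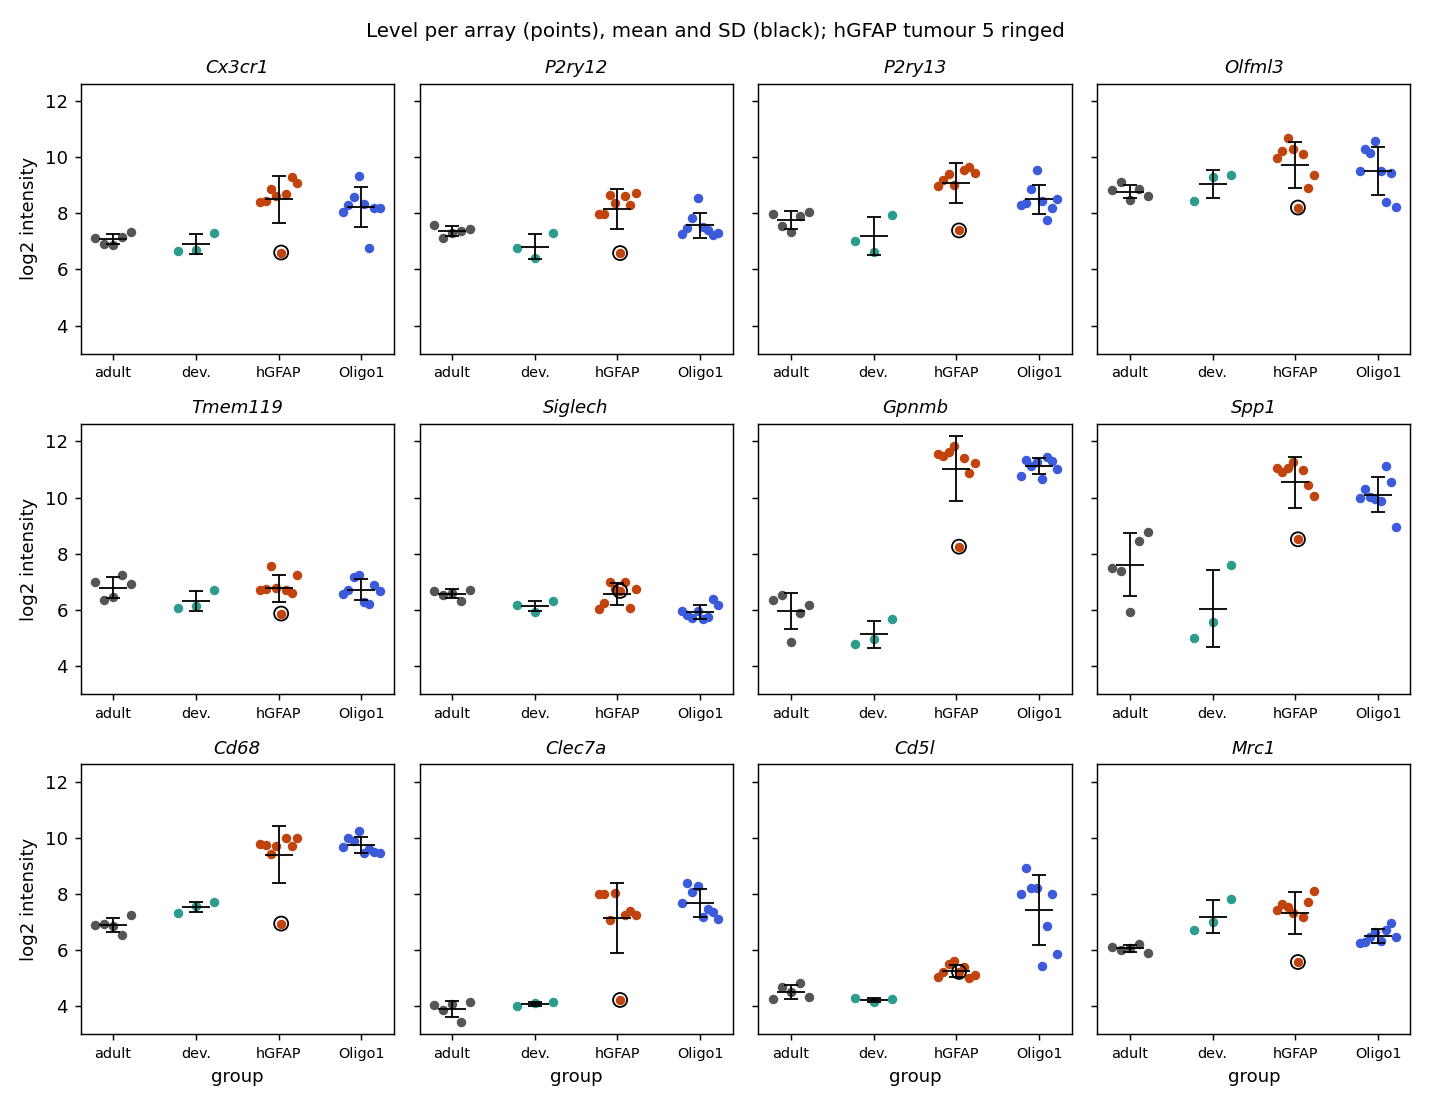
Log2 intensity (vertical axis, the same for all panels) of 12 members in the 4 groups, with each array as a point, the mean and SD in black and hGFAP tumour 5 ringed. Clec7a and Cd68 lie well above the normal groups in every tumour but hGFAP tumour 5 and Gpnmb in all 16, Tmem119 overlaps in all groups, and Cd5l is above 6.8 in 6 of the 8 Oligo1 tumours and in no hGFAP tumour.

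The phagocytic genes had the largest median difference of the 5 lists. Of 8, 7 passed the filter, of which 6 were called higher in hGFAP tumours and 7 in Oligo1 tumours; without the filter it was 7 and 8 of 8. The median difference was 2.26 in hGFAP and 2.67 in Oligo1 tumours. Cd5l was the 1 member called in Oligo1 but not in hGFAP tumours.

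Gpnmb, a transmembrane glycoprotein of lysosomes and phagosomes that melanocytes and osteoclasts also make, measured 6.34, 6.53, 4.86, 5.89 and 6.18 in adult cerebellum and 4.77, 4.96 and 5.68 at embryonic days 15 and 18 and postnatal day 0. The hGFAP tumours had a lowest level of 8.25, a median of 11.45 and a highest of 11.83, and the Oligo1 tumours a lowest level of 10.68, a median of 11.19 and a highest of 11.46. Every tumour, tumour 5 included, lay above all 8 normal arrays. The differences from adult cerebellum were 5.07 ± 0.42 (SE) in hGFAP tumours (limma, adjusted p = 3.27e-08) and 5.16 ± 0.42 (SE) in Oligo1 tumours (adjusted p = 8.23e-09). No adult array was above 7.61, and in the array's low range differences are compressed. All 11 of its probe sets that passed the filter were called higher in both.

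Clec7a, the beta-glucan receptor dectin-1, measured 4.05, 3.87, 4.07, 3.44 and 4.17 in adult cerebellum. In hGFAP tumours it had a lowest level of 4.23, a median of 7.33 and a highest of 8.03, and in Oligo1 tumours a lowest level of 7.11, a median of 7.58 and a highest of 8.39. Only hGFAP tumour 5 was near the adult level; it lay just above the highest adult array. The differences were 3.23 ± 0.43 (SE) (limma, adjusted p = 5.87e-06) and 3.77 ± 0.43 (SE) (adjusted p = 2.48e-07).

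Cd68, a lysosomal membrane glycoprotein of macrophages, measured 6.89, 6.93, 6.87, 6.55 and 7.24 in adult cerebellum. Across the 8 hGFAP tumours there was a lowest level of 6.95, a median of 9.72 and a highest of 9.99, and across the 8 Oligo1 tumours a lowest level of 9.46, a median of 9.65 and a highest of 10.24. All tumours but hGFAP tumour 5, which was within the adult range, exceeded every normal array. The differences were 2.51 ± 0.34 (SE) (limma, adjusted p = 6.86e-06) and 2.83 ± 0.34 (SE) (adjusted p = 4.29e-07), and all 8 probe sets were called higher in both.

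Spp1, which encodes the secreted matrix protein osteopontin and is also made by some neurons, varied most in normal tissue, with 7.50, 7.37, 5.91, 8.45 and 8.79 in the adult arrays. Tumours of the hGFAP group had a lowest level of 8.51, a median of 10.95 and a highest of 11.28, and those of the Oligo1 group a lowest level of 8.95, a median of 10.01 and a highest of 11.13. The Oligo1 tumours were all above the adult arrays, though number 8 only narrowly, and hGFAP tumour 5 lay within the adult range. The differences were 2.94 ± 0.50 (SE) (limma, adjusted p = 6.94e-05) and 2.50 ± 0.50 (SE) (adjusted p = 0.000136).

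Lgals3, the galactoside-binding lectin galectin-3, measured 6.25, 5.78, 6.29, 6.58 and 6.40 in adult cerebellum. The hGFAP tumours had a lowest level of 6.64, a median of 8.32 and a highest of 8.71, and the Oligo1 tumours a lowest level of 7.66, a median of 8.38 and a highest of 8.92. The tumours and the normal arrays did not overlap, and the differences were 1.91 ± 0.26 (SE) (limma, adjusted p = 6.36e-06) and 2.06 ± 0.26 (SE) (adjusted p = 6.20e-07). Msr1, the class A scavenger receptor for modified lipoproteins, measured 5.99, 5.41, 5.15, 4.93 and 5.53 in adult cerebellum. It had a lowest level of 5.47, a median of 7.71 and a highest of 8.18 in hGFAP tumours, and a lowest level of 6.44, a median of 7.15 and a highest of 7.82 in Oligo1 tumours. Tumour 5 of the hGFAP group fell among the adult arrays and the other 15 tumours lay above them, with differences of 2.01 ± 0.34 (SE) (limma, adjusted p = 7.30e-05) and 1.74 ± 0.34 (SE) (adjusted p = 0.000113). Itgax, the integrin CD11c of dendritic cells and activated microglia, did not pass the filter and was higher without it by 1.23 (limma, adjusted p = 7.82e-05) and 1.46 (adjusted p = 3.28e-06).

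Cd5l, a secreted protein that tissue macrophages make, differed most between the tumour groups. It measured 4.24, 4.68, 4.51, 4.83 and 4.32 in adult cerebellum. The hGFAP tumours had a lowest level of 5.01, a median of 5.22 and a highest of 5.60, and Oligo1 tumours 1 to 8 measured 7.99, 8.93, 8.22, 8.22, 5.44, 6.85, 8.01 and 5.87. Oligo1 tumours 1 to 4, 6 and 7 were far above every hGFAP tumour, number 8 was narrowly above them and number 5 lay among them. The difference from adult cerebellum was 2.92 ± 0.41 (SE) in Oligo1 tumours (limma, adjusted p = 2.20e-06) and 0.75 ± 0.41 (SE) in hGFAP tumours, which did not pass (adjusted p = 0.124), although all 8 hGFAP tumours lay above the 5 adult arrays.

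**Figure D3:**
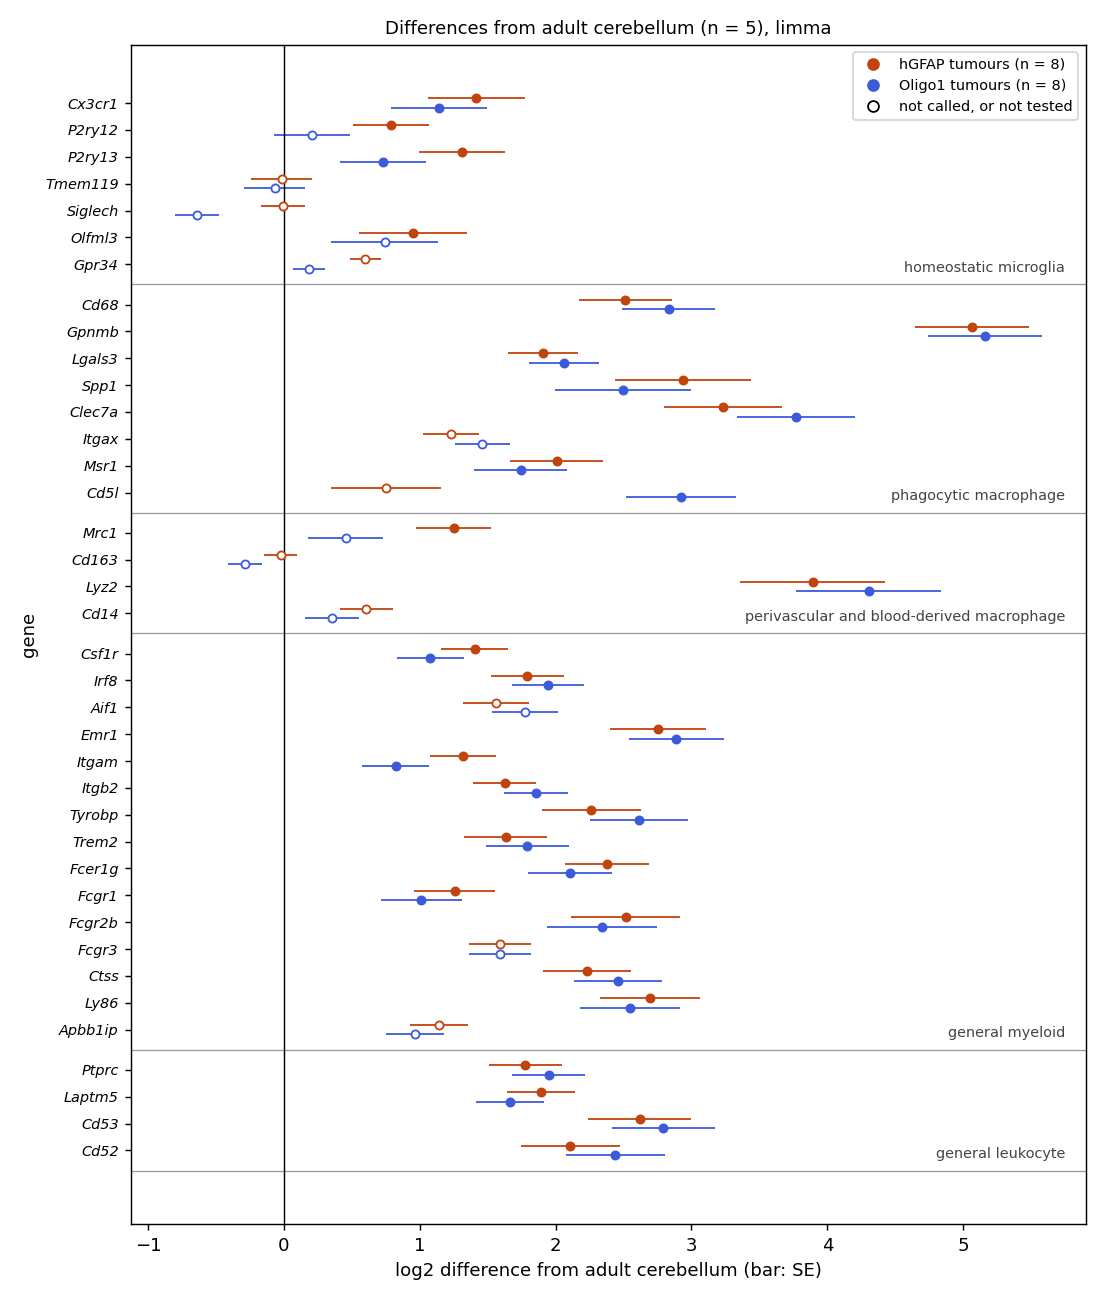
Difference of each tumour group from adult cerebellum on the log2 scale (horizontal axis, SE as bars) for the 38 members, with filled points where limma called the gene and open points where it did not or where the gene was not tested under the filter. The 2 groups sit close together for most genes; Cd5l, with 0.75 and 2.92, is the widest apart.

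Set against each other within each array, the phagocytic genes stood higher relative to the homeostatic ones in the tumours than in normal cerebellum. The mean log2 level of the 8 phagocytic genes minus that of the 7 homeostatic genes lay between -1.43 and -1.16 in the adult and between -1.35 and -1.18 in the developing arrays. In hGFAP tumours it ranged from -0.26, in tumour 5, to 0.94, and in Oligo1 tumours from 0.70 to 2.04. All 16 tumours were above all 8 normal arrays, and 3 of the 8 hGFAP tumours, numbers 1, 2 and 4, reached the Oligo1 range. The gap is a difference of log intensities of different probes, so its sign within an array has no meaning, and only its shift between arrays is read. Left out of the mean, Cd5l moved the Oligo1 range to 0.79 to 2.32 and the hGFAP range to -0.09 to 1.45.

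The 2 lists contribute unequally to that shift. The phagocytic mean was 7.89 to 8.99 in Oligo1 tumours and 8.19 to 8.69 in hGFAP tumours other than number 5, against 5.43 to 5.99 in adult cerebellum. The homeostatic mean was 7.66 to 8.26 in those 7 hGFAP tumours, above the adult range of 6.86 to 7.16. In Oligo1 tumours it was 6.73 to 8.07, with tumour 6 below the adult range and tumours 3 and 4 highest. The median phagocytic minus the median homeostatic difference from adult cerebellum was 1.47 in hGFAP and 2.46 in Oligo1 tumours. These are descriptions of lists chosen with earlier results known, and no test was made over them.

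**Figure D4:**
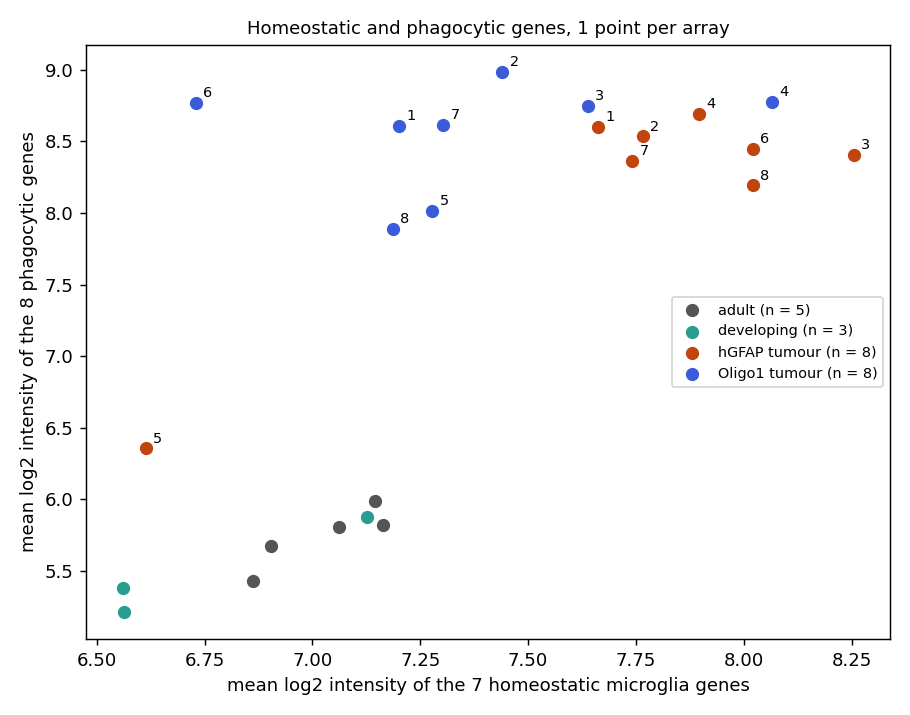
Each point is 1 array, placed by its mean log2 intensity over the 7 homeostatic genes (horizontal) and over the 8 phagocytic genes (vertical), with tumour numbers beside the points. The normal arrays lie at the bottom, 15 tumours lie at the top spread from left to right, and hGFAP tumour 5 sits near the normal arrays.

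The 4 perivascular and blood-derived macrophage markers did not move as a group. Lyz2, lysozyme of monocytes and macrophages, measured 7.08, 7.94, 6.56, 7.24 and 8.29 in adult cerebellum. In hGFAP tumours it had a lowest level of 7.59, a median of 11.90 and a highest of 12, and in Oligo1 tumours a lowest level of 11.21, a median of 11.73 and a highest of 12.20. All 8 Oligo1 tumours and 7 hGFAP tumours were far above the adult arrays, while hGFAP tumour 5 was among them. The differences were 3.89 ± 0.53 (SE) (limma, adjusted p = 7.20e-06) and 4.30 ± 0.53 (SE) (adjusted p = 5.76e-07). Lyz2 shares most of its sequence with its neighbour Lyz1, whose transcripts its probe sets may also measure.

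Mrc1, the mannose receptor CD206 of perivascular macrophages, measured 6.11, 6.02, 6.07, 6.23 and 5.88 in adult cerebellum and 6.72, 7.02 and 7.84 in the developing arrays. Across the 8 hGFAP tumours there was a lowest level of 5.58, a median of 7.48 and a highest of 8.09, and across the 8 Oligo1 tumours a lowest level of 6.24, a median of 6.47 and a highest of 6.96. The other 7 hGFAP tumours were above every Oligo1 tumour, while tumour 5 was below every other array of the series. Mrc1 was higher in hGFAP tumours by 1.25 ± 0.28 (SE) (limma, adjusted p = 0.000723), while the Oligo1 difference of 0.45 ± 0.28 (SE) did not pass (adjusted p = 0.145). Of its 17 probe sets that passed the filter, 13 were called higher in hGFAP tumours and in Oligo1 tumours 3 were higher and 1 lower.

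Cd163, the scavenger receptor for haemoglobin bound to haptoglobin, was dim on all arrays, with 4.48 to 5.08 in adult cerebellum, 4.55 to 5.42 in hGFAP and 4.37 to 4.78 in Oligo1 tumours; without the filter its differences of -0.02 and -0.29 did not pass (limma, adjusted p = 0.906 and 0.0559). Cd14, the co-receptor for bacterial lipopolysaccharide, measured 5.45, 5.33, 4.98, 5.78 and 5.73 in adult cerebellum. It had a lowest level of 5.45, a median of 6.08 and a highest of 6.68 in hGFAP tumours, and a lowest level of 5.33, a median of 5.74 and a highest of 6.66 in Oligo1 tumours. The 3 groups overlapped. Without the filter Cd14 was higher in hGFAP tumours by 0.61 (limma, adjusted p = 0.0194), and its Oligo1 difference of 0.36 did not pass (adjusted p = 0.143).

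The 15 general myeloid genes were all higher in both tumour groups. All 12 that passed the filter were called higher in each, and all 15 were without the filter. The differences ran from 1.14 to 2.75 in hGFAP tumours, median 1.63, and from 0.82 to 2.89 in Oligo1 tumours, median 1.86. Among the receptors, Csf1r, which takes the growth factors Csf1 and Il34 that microglia need, was higher by 1.40 and 1.08 (limma, adjusted p = 9.04e-05 and 0.000496), and all 22 of its probe sets that passed were called higher in both. Trem2, a lipid-sensing receptor of microglia, differed by 1.63 and 1.79 (adjusted p = 0.000177 and 2.38e-05).

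Tyrobp, the adaptor that carries the Trem2 signal, measured 6.84, 6.68, 6.63, 6.96 and 7.14 in adult cerebellum. Tumours of the hGFAP group had a lowest level of 6.51, a median of 9.41 and a highest of 9.64, and those of the Oligo1 group a lowest level of 9.09, a median of 9.50 and a highest of 9.95. Tumour 5 was below every adult array and the other 15 tumours were above them, with differences of 2.26 ± 0.36 (SE) (limma, adjusted p = 3.84e-05) and 2.61 ± 0.36 (SE) (adjusted p = 2.10e-06). Fcer1g, the adaptor shared by activating Fc receptors, differed by 2.38 and 2.11 (limma, adjusted p = 4.05e-06 and 3.78e-06). Of the receptors for immunoglobulin G, Fcgr2b, the inhibitory one, differed by 2.51 and 2.34, and Fcgr1, the high-affinity one, by 1.26 and 1.01; both were called in both groups. Fcgr3, below the filter, differed by 1.59 and 1.59.

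Emr1, which encodes the F4/80 antigen of mouse macrophages, measured 5.52, 5.43, 5.46, 5.49 and 5.91 in adult cerebellum and 5.98, 6.28 and 6.82 in the developing arrays. The hGFAP tumours had a lowest level of 6.21, a median of 8.61 and a highest of 8.92, and the Oligo1 tumours a lowest level of 7.98, a median of 8.21 and a highest of 9.65. Every tumour lay above the adult arrays, and hGFAP tumour 5 lay within the developing range. The differences from adult cerebellum were 2.75 ± 0.35 (SE) (limma, adjusted p = 3.42e-06) and 2.89 ± 0.35 (SE) (adjusted p = 4.59e-07).

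Ly86, the secreted partner of the receptor Cd180, measured 7.60, 7.59, 7.11, 7.95 and 8.70 in adult cerebellum. In hGFAP tumours it had a lowest level of 8.55, a median of 10.77 and a highest of 10.99, and in Oligo1 tumours a lowest level of 9.58, a median of 10.29 and a highest of 11.42. All tumours but hGFAP tumour 5 lay above the adult range. The differences were 2.70 ± 0.37 (SE) (limma, adjusted p = 6.73e-06) and 2.55 ± 0.37 (SE) (adjusted p = 3.13e-06). The rest of the list were the transcription factor Irf8, the calcium-binding protein Aif1 (IBA1), the integrin chains Itgam (CD11b) and Itgb2 (CD18), the lysosomal protease Ctss and Apbb1ip, which links Rap1 to integrins. Their differences lay between 1.14 (Apbb1ip) and 2.23 (Ctss) in hGFAP tumours and between 0.82 (Itgam) and 2.46 (Ctss) in Oligo1 tumours.

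The 4 leukocyte genes were called higher in both groups, with differences from 1.78 to 2.62 in hGFAP and from 1.66 to 2.79 in Oligo1 tumours. Cd53, a tetraspanin of leukocytes, measured 6.40, 6.51, 5.80, 5.74 and 6.82 in adult cerebellum. Across the 8 hGFAP tumours there was a lowest level of 6.64, a median of 9.22 and a highest of 9.38, and across the 8 Oligo1 tumours a lowest level of 8.37, a median of 9.10 and a highest of 9.95. Tumour 5 was within the adult range and the other 15 tumours were above it, with differences of 2.62 ± 0.38 (SE) (limma, adjusted p = 1.29e-05) and 2.79 ± 0.38 (SE) (adjusted p = 1.63e-06). Laptm5, a lysosomal protein of blood cells, differed by 1.89 and 1.66 (limma, adjusted p = 4.69e-06 and 5.00e-06).

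Ptprc, the phosphatase CD45, measured 5.88, 6.06, 6.16, 5.98 and 6.48 in adult cerebellum. Tumours of the hGFAP group had a lowest level of 7.10, a median of 7.97 and a highest of 8.52, and those of the Oligo1 group a lowest level of 7.34, a median of 7.84 and a highest of 9.15. No tumour overlapped with a normal array, and Oligo1 tumours 4, 1 and 3 were the highest of all. The differences were 1.78 ± 0.27 (SE) (limma, adjusted p = 2.21e-05) and 1.95 ± 0.27 (SE) (adjusted p = 2.10e-06). With the brightest probe set alone in place of the summary of 33, they were -0.19 and -0.52; 20 of the 25 probe sets that passed the filter were called higher in each group and 0 lower.

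Cd52, a small surface glycoprotein of lymphocytes and macrophages, measured 5.33, 5.26, 5.03, 5.49 and 6.36 in adult cerebellum. The hGFAP tumours had a lowest level of 6.98, a median of 7.45 and a highest of 8.98, and the Oligo1 tumours a lowest level of 7.18, a median of 7.42 and a highest of 9.52. The highest were Oligo1 tumour 4, hGFAP tumour 7 and Oligo1 tumour 3, and hGFAP tumour 5 was above every adult array. The differences were 2.11 ± 0.37 (SE) (limma, adjusted p = 8.78e-05) and 2.44 ± 0.37 (SE) (adjusted p = 5.20e-06). Oligo1 tumours 3 and 4 were also those with B cell genes, such as Cd79a at 7.09 and 8.26 where the other 6 Oligo1 tumours had at most 4.88, and with a T and NK cell mean of 5.67 and 6.22 against at most 5.11; their part in the members' levels was not tested. Oligo1 tumour 4 was the highest of its group for 25 of the 38 members. Over all genes it also had the highest median of its group, 7.17, and the most genes above the table median, 9333. The share of all genes that were highest in it was not computed. Without tumours 3 and 4, 25 members were still called higher in Oligo1 tumours than in adult cerebellum, with no share of all genes given for that fit.

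Sfpi1, the platform's name for Spi1, encodes the transcription factor PU.1, which is needed to make microglia and macrophages and binds purine-rich sequences with a GAGGAA core. It was singled out after its values were seen: 5.63, 5.44, 5.78, 5.56 and 5.84 in adult cerebellum, with a lowest level of 5.87, a median of 8.04 and a highest of 8.55 in hGFAP tumours and a lowest level of 7.17, a median of 7.88 and a highest of 8.74 in Oligo1 tumours. Every tumour lay above every adult array, and the differences were 2.18 ± 0.34 (SE) (limma, adjusted p = 2.57e-05) and 2.19 ± 0.34 (SE) (adjusted p = 6.92e-06). GAGGAA or its reverse complement TTCCTC was therefore looked for on both strands in the RefSeq promoter windows of GRCm38.p6, which run from 250 bases before to 50 bases after a gene's start. No other motif was searched. Of the 38 members 29 had a window, and 17 of them (58.6%) held the motif in at least 1 window; the same share over the table's 27025 genes was 31.3%, and over its 32851 windows 28.3%. The match is a description of letters and not a measure of binding.

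The windows below are those of the first 2 homeostatic and the first 2 phagocytic members, in list order, that held the motif. Each is printed 5′ to 3′ on the strand of the gene, with the motif in capitals and its build GRCm38.p6. P2ry13 and Siglech are the homeostatic pair, Cd68 and Spp1 the phagocytic pair.
P2ry13 (chr3:59210833-59211132, minus strand): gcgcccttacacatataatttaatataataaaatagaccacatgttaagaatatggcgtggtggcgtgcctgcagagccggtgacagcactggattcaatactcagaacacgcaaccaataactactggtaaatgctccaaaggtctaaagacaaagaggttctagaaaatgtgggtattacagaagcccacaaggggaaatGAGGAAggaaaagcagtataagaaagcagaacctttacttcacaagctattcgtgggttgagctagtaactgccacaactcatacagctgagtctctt
Siglech (chr7:55767934-55768233, plus strand): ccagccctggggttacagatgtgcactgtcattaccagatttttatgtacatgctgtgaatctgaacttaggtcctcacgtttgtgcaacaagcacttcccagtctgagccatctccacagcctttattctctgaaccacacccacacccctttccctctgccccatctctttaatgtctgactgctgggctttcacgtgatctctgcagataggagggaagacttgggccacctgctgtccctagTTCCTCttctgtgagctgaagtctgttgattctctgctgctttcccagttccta
Cd68 (chr11:69666121-69666420, minus strand): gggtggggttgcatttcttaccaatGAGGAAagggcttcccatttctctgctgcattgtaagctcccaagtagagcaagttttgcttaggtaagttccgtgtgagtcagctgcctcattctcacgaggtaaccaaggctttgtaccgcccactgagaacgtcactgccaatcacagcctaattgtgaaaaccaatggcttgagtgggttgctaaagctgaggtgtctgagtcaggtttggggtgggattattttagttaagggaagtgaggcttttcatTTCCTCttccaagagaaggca
Spp1 (chr5:104434861-104435160, plus strand): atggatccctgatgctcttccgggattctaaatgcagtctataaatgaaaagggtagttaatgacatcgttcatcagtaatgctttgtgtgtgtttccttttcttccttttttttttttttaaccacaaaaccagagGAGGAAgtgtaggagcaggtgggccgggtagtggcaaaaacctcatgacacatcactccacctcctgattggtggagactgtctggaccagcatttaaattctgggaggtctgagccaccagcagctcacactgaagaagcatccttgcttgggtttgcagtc
In P2ry13 and Spp1 the motif reads forward and begins 48 and 113 bases before the start. In Siglech it reads in reverse and begins 4 bases before the start. Cd68 holds 2 copies, 1 forward at 225 bases before the start and 1 in reverse after it. The motif was thus present both in Cd68, higher by 2.83 in Oligo1 tumours, and in Siglech, which differed by -0.64 there.

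The direct comparison of the tumour groups called few members. Of 29 tested, 1 was higher and 1 lower in hGFAP than in Oligo1 tumours, where 18.9% of genes tested were called in either direction; without the filter it was 3 higher and 1 lower of 38, against 7.63% of genes. The arrays of the groups were separate for 0 of 38 members, beside 0.239% of all genes with hGFAP tumours all higher and 0.220% with them all lower. The members differed by a median of 0.10, beside 0.02 over all genes. The lower one was Cd5l, by -2.17 ± 0.36 (SE) (limma, adjusted p = 0.00176), and the higher one Mrc1, by 0.80 ± 0.24 (SE) (adjusted p = 0.0314). Without the filter Siglech (0.63 ± 0.14 (SE), limma, adjusted p = 0.0154) and Gpr34 (0.42 ± 0.10 (SE), adjusted p = 0.0215) were also higher in hGFAP tumours.

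The call of Cd5l was kept in all 39 alternative settings in which it was tested. It was above 7.61 on 5 arrays, all of Oligo1 tumours, so under the filter it was tested only where enough of those were present. That count is therefore no independent support for the call. The call of Mrc1 was lost in 12 of 38 alternative settings, among them the fits without hGFAP tumour 3, 6 or 8 and without Oligo1 tumour 1, 2 or 3, and with the replicate number as a block (limma, adjusted p = 0.078). Without hGFAP tumour 5, 6 members were called: Mrc1 (1.04), P2ry12 (0.80), P2ry13 (0.82), Itgam (0.70) and Csf1r (0.52) were higher in hGFAP tumours and Cd5l (-2.17) was lower, where 10.5% of the genes tested were called. With the brightest probe set alone and all tumours in the fit, Itgam differed by -0.67 (limma, adjusted p = 0.0485). The 7 homeostatic genes had a median difference of 0.42 with tumour 5 included, ranging from 0.05 to 0.63, and the 8 phagocytic genes one of -0.19, from -2.17 to 0.44. Of the 8 mature neuron genes 5 were called higher in hGFAP than in Oligo1 tumours; their part in the members' differences was not tested.

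The array descriptions came in 2 naming styles, short for tumours 1 to 4 and long for tumours 5 to 8 of both groups. Cd5l in Oligo1 tumours was 7.99 to 8.93 in the first 4 and 5.44 to 8.01 in the last 4. Fitted on tumours 1 to 4 alone, the Cd5l difference between hGFAP and Oligo1 tumours was -2.99 (limma, adjusted p = 8.27e-07), and on tumours 5 to 8 alone Cd5l did not pass the filter and 0 of the members tested were called, beside 10 of 10696 genes or 0.0935%. Mrc1 differed by 0.52 between tumours 5 to 8 (adjusted p = 0.428), a comparison that holds hGFAP tumour 5.

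Against the developing cerebellum the members were higher to a similar extent. In hGFAP tumours 26 of 29 were called higher and 0 lower, beside 15.0% of genes called higher, and in Oligo1 tumours 26 of 29 and 0, beside 27.5%; without the filter 32 and 31 of 38 were called higher, against 9.65% and 17.0% of genes, and 0 lower in each. At an unadjusted p under 0.05, 0 of 38 were lower in hGFAP and 1 in Oligo1 tumours. All tumour arrays lay above the developing ones for 21 members in hGFAP tumours, beside 7.46% of all genes, and for 28 in Oligo1 tumours, beside 16.2%. Gpnmb differed by 5.89 ± 0.50 (SE) and 5.98 ± 0.50 (SE) (limma, adjusted p = 9.44e-09 and 6.34e-09). Mrc1, at 6.72 to 7.84 in the developing arrays, was within their range in 6 of the 8 hGFAP tumours and differed by 0.12 (adjusted p = 0.823). The 3 developing arrays were used for both comparisons.

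Developing and adult cerebellum differed in 1 member of 29, Mrc1, which was higher in the developing group by 1.13 ± 0.35 (SE) (limma, adjusted p = 0.0119), where 45.7% of genes tested were called in either direction. Without the filter it was 1 of 38, beside 30.5% of genes, and at an unadjusted p under 0.05 it was 1 higher and 3 lower. Spp1 (5.00, 5.55 and 7.58 at embryonic days 15 and 18 and postnatal day 0) differed by -1.56 (adjusted p = 0.0507) and Ctss by -0.99 (adjusted p = 0.0539), neither of which passed here. Spp1 was called in 11 alternative settings and Ctss in 7. Without hGFAP tumour 5, 8 members were called, 3 higher and 5 lower, beside 53% of genes, and with array weights 13, 4 higher and 9 lower, beside 69.6%. For 33 of the 38 members the postnatal day 0 array was the highest of the 3, including P2ry12, P2ry13 and Mrc1, with 1 array per age and no test. That array also had the highest median over all genes of the 3, 7.19 against 7.10 and 7.14. The share of all genes that were highest on it was not computed.

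The surrounding pathway genes, from lists chosen with earlier results known, moved with the members in part. Of 36 other microglia and macrophage genes on the array 22 passed the filter, and 20 were called higher in each tumour group; without the filter 32 and 31 of 36 were. The largest differences were those of Cybb, the catalytic subunit of the phagocyte NADPH oxidase (3.44 and 3.69, limma, adjusted p = 2.76e-06 and 2.67e-07), Fcrls, a scavenger-like Fc receptor of mouse microglia (3.32 and 3.29), the complement chain C1qc (2.86 and 3.16) and Cd180, the partner of Ly86 (2.73 and 2.57). Rgs10, a regulator of G protein signalling that neurons also make, was lower in Oligo1 tumours by -0.62 on the log2 scale (adjusted p = 0.0145). Between the tumour groups Cd33, a sialic acid binding lectin, was the 1 called, higher in hGFAP tumours by 0.70 (adjusted p = 0.0445). Without the filter limma called 0 of the 36, and Cd33 was the 1 with an unadjusted p under 0.05. Its adjusted p from limma was then 0.0641.

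Among 11 ligands and cofactors of the member receptors, 9 passed the filter. In both tumour groups 2 of the 9 were called lower, beside 29.8% of all genes tested in hGFAP and 34.5% in Oligo1 tumours. They were Cx3cl1, the ligand of Cx3cr1, which neurons make (-1.08 and -1.69, limma, adjusted p = 0.00345 and 2.40e-05), and Cd47, the surface protein that restrains phagocytosis (-0.96 and -1.55, adjusted p = 0.00141 and 3.86e-06). The mature neuron genes were lower in the same tumours, and their part in these differences was not tested. Cx3cl1 measured 9.33, 9.36, 8.90, 9.16 and 9.28 in adult cerebellum and 6.85 to 8.31 in Oligo1 tumours, with no overlap, while hGFAP tumours 5 and 6 lay within the adult range. Tgfb1, a cytokine that maintains the homeostatic state, was higher in both groups (0.59 and 0.48), and Axl, a receptor for apoptotic cells, was higher in hGFAP tumours (0.53, adjusted p = 0.0106).

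Csf1, a growth factor that signals through Csf1r, was called in neither tumour group against adult cerebellum (0.53 and -0.37, limma, adjusted p = 0.0505 and 0.145). It differed between the tumour groups, by 0.90 ± 0.20 (SE) (adjusted p = 0.0102), with 7.39 to 8.59 in hGFAP and 6.09 to 7.74 in Oligo1 tumours, which overlap. Il34, the second ligand, did not pass the filter.

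Of 16 lysosome and lipid genes of activated microglia, 14 passed the filter and 11 were called higher in each group. Cst7, a cathepsin inhibitor, differed by 3.03 and 3.13 (limma, adjusted p = 1.94e-05 and 3.70e-06), the chemokine Ccl3 by 2.74 and 2.84, lipoprotein lipase Lpl by 2.16 and 2.38 and the tetraspanin Cd9 by 1.79 and 2.33. With the brightest probe set alone Ccl3 differed by -0.45 and -0.64. Csf2ra, a chain of the GM-CSF receptor, was lower in Oligo1 tumours by -0.50 on the log2 scale (adjusted p = 0.0184). The cathepsins Ctsb and Ctsl, which many cell types make, did not pass in either group.

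Few markers of other blood cells passed the filter. None of 11 neutrophil, 10 T and NK cell or 4 B cell genes passed the filter, and of 7 monocyte genes 2 did, of which Vcan, also made by neural precursors, was called higher in hGFAP tumours (1.24, limma, adjusted p = 0.00964). Tested without the filter, Cxcr2 of the neutrophil list was higher in hGFAP tumours by 1.64 (adjusted p = 0.000489), and Cd4, a T helper cell gene that macrophages also make, was higher in both groups, by 1.70 and 1.51 (adjusted p = 3.77e-06 and 3.80e-06). Also without the filter, 4 of the 7 monocyte genes were called higher in hGFAP tumours, Ccr2, Plac8, F13a1 and Vcan, and 1 in Oligo1 tumours, Plac8. Of the 4 B cell genes 1 was called higher in Oligo1 tumours, Cd79b (1.14, adjusted p = 0.0285). Cd79b measured 8.13 in Oligo1 tumour 3 and 9.05 in tumour 4, and Cd3g, a chain of the T cell receptor complex, 7.08 and 8.25. A gene above 7.61 in those tumours alone could not pass the filter of 3 arrays. The neutrophil mean was 4.46 to 4.73 in 7 Oligo1 tumours and 5.74 in tumour 6, the tumour with the widest gap between phagocytic and homeostatic genes. The monocyte mean was 6.62 to 7.34 in the hGFAP tumours other than number 5, highest in number 7, against 6.22 to 6.49 in adult cerebellum and 6.37 to 6.82 in Oligo1 tumours. Their part in the members' levels was not tested. All 8 mature neuron genes were called lower in both tumour groups, with medians of -2.36 and -4.40, and their part was not tested either.

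**Figure D5:**
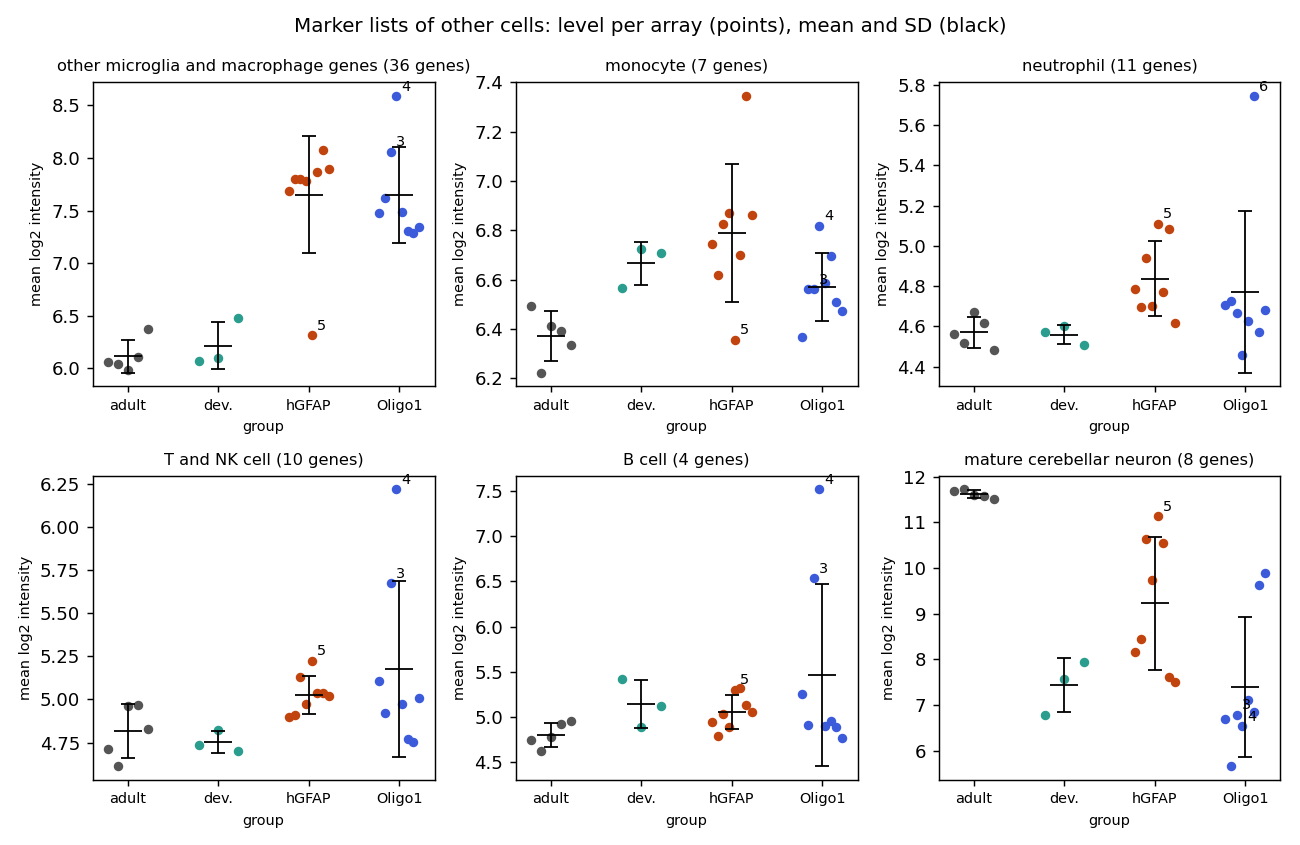
Mean log2 intensity per array (vertical axes, scaled to each panel) of 6 marker lists in the 4 groups, with means and SD in black and numbers beside the arrays named in the text. Oligo1 tumours 3 and 4 stand above the rest in the B cell and T and NK cell panels, and hGFAP tumour 5 lies near adult cerebellum in the microglia, monocyte and neuron panels.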

How the data were processed

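Total RNA extracted with TRIzol, per the labels' protocols, was measured on 24 Affymetrix arrays. The deposited values are log2 intensities, which the authors made by robust multi-array averaging with oligo 1.14 in R 2.15, per the submitters' processing notes. They cover 241576 probe sets, of which the platform annotation gives 213361 exactly 1 gene symbol, 5107 several and 23108 none. Those with 1 symbol were summarised per gene by median polish to 20893 genes. The chip's depth has no count; the number of arrays limits the precision.

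Genes above 7.61 on at least 3 arrays were tested, 10983 in all, with limma 3.58.1 in R 4.3.3: 1 model of 4 groups over all 24 arrays, Benjamini-Hochberg adjustment over all genes tested, and calls at an adjusted p under 0.05. The test was tried on simulated data. Genes described array by array were the homeostatic and phagocytic members that passed the filter. From each other member list they were the 3 with the largest difference from adult cerebellum in either tumour group. Those 9 were thus picked by their size in these data and are not typical of their lists. Other genes are named as the largest, the called exceptions or the defining markers of their list. The members and all lists were chosen with earlier results of these data known. Alternatives changed the summary, filter, scaling, model and samples. Groups came from the titles. Same-numbered tumours of the 2 groups correlated between -0.50 and 0.59 in their deviations, and 1 of 8 pairs matched best with its own number, so numbers were not treated as pairs. Some entries of the marker lists are not reported here.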

Additional observations from a re-analysis of the deposited data

Results flagged for a closer look

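In groups of 5 or 8 arrays, 32 of 114 sets of levels of a member had an array whose gap to its nearest neighbour passed Dixon's 95% value. The 95% value is passed by chance in about 1 in 20 independent sets. These sets share their arrays and are not independent, so the count is not set against that rate. Of the 32 flags, 28 were the array of hGFAP tumour 5 as the lowest of its group. That array was the lowest of all 16 tumours for 33 of 38 members, beside 28.3% of all genes. Among the flagged homeostatic genes hGFAP tumour 5 had Cx3cr1 at 6.60, P2ry12 at 6.58, P2ry13 at 7.39 and Gpr34 at 4.97. Among phagocytic genes it had Cd68 at 6.95, Gpnmb at 8.25, Lgals3 at 6.64, Spp1 at 8.51, Clec7a at 4.23 and Itgax at 5.59. Mrc1 stood at 5.58 and Lyz2 at 7.59. The general myeloid genes were Csf1r at 7.71, Irf8 at 6.58, Aif1 at 5.78, Emr1 at 6.21, Itgam at 6.05, Itgb2 at 6.48, Tyrobp at 6.51 and Trem2 at 6.92. Their list also had Fcer1g at 8.07, Fcgr1 at 6.27, Fcgr2b at 5.70, Ctss at 7.34, Ly86 at 8.55 and Apbb1ip at 5.69, and the leukocyte list Laptm5 at 8.56 and Cd53 at 6.64. Of the 38 members, 19 were within the adult range on this array, 13 above it and 6 below it, beside 36.5%, 27.4% and 36.1% of all genes.

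The other 4 arrays were each apart for 1 gene: Oligo1 tumour 4 for P2ry12 (8.55, highest), hGFAP tumour 7 for Cd52 (8.98, highest), adult 5 for Emr1 (5.91, highest) and adult 2 for Itgb2 (5.41, lowest). The differences from adult cerebellum of the tumour groups themselves differed, by limma's direct comparison, for Cd5l (-2.17, hGFAP minus Oligo1) and for Mrc1 (0.80).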

How the results depend on the processing

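Against adult cerebellum 24 of the 28 members called in hGFAP tumours and 21 of the 26 in Oligo1 tumours kept their call and direction in every alternative in which they passed the filter. The exceptions were Olfml3, P2ry12, Irf8 and Ptprc in hGFAP and P2ry13, Cx3cr1, Fcgr1, Irf8 and Ptprc in Oligo1 tumours. Leaving out 1 array gave 26 to 28 calls for hGFAP and 25 to 27 for Oligo1 tumours against adult cerebellum, 26 to 27 and 24 to 28 against developing cerebellum, 1 to 6 between tumour groups (6 without hGFAP tumour 5) and 1 to 8 for developing against adult cerebellum (8 without hGFAP tumour 5, 3 without adult 3). In the main fit 54.0% and 70.2% of all genes tested were called in either direction against adult cerebellum, and 28.3% and 47.5% against developing cerebellum. How these shares moved when 1 array was left out is not given here, so the ranges describe the members alone. With the filter at the table's 75th percentile 13 members were tested, of which 13 were called in hGFAP and 12 in Oligo1 tumours against adult, 12 in each against developing cerebellum and 0 between tumour groups. Shares of all genes called at that filter are not given here, so these counts describe the members alone. Between tumour groups, where 2 were called, 4 were called without the filter, 9 with array weights, 6 without hGFAP tumour 5 and Oligo1 tumour 6, and 7 with no filter and without hGFAP tumour 5, beside 7.63%, 39.5%, 12.6% and 4.1% of all genes tested, against 18.9%. In that comparison 1 was called with the mean of the probe sets, with quantile normalization, with only the 2 groups fitted, at a 2-fold minimum, with the naming style as a block and without Oligo1 tumours 3 and 4, and 0 with long array names alone, where 21% (mean), 20.7% (quantile), 1.91% (2 groups) and 0.0935% (long names) of all genes tested were called. With the replicate number as a block 1 was called, Cd5l (limma, adjusted p = 0.0421), and no pairing was found. No share of all genes is given for either block, the 2-fold minimum or the fit without Oligo1 tumours 3 and 4. For developing against adult cerebellum, where 1 was called beside 45.7% of all genes tested, the brightest probe set gave 2, quantile normalization 3, centring 3, limma's trend and robust options 2, array weights 13 and mixed strain adults 2. Apart from array weights, whose share is given above, these settings have no share of all genes here. Their counts are therefore not read as a result about the members. The brightest probe set alone reversed Ptprc (-0.19 and -0.52) and Ccl3 (-0.45 and -0.64) against adult and Ccl3 (-0.18 and -0.37) against developing cerebellum. It also reversed Lair1 in Oligo1 tumours (-0.18 against adult, -0.20 against developing), Itgam (-0.67 between tumour groups, -0.18 hGFAP against developing, 0.99 developing against adult) and C1qa (-0.51 and -0.071 against developing, 1.11 developing against adult), and array weights reversed Gpnmb between tumour groups (0.48). The causes were not tested. The gap between the phagocytic and homeostatic medians kept its sign in the alternatives run for it. Centring moved the median of all genes tested most for developing against adult cerebellum, by -0.13. The fits without Oligo1 tumours 3 and 4, and without hGFAP tumour 5 and the filter, were chosen after seeing the data. Dim members such as Cd163, with an adult mean of 4.85, lie near the array's low range, where differences are compressed. Tmem119 (6.79) and Siglech (6.57) did not pass the filter either. Their adult means lie closer to the median gene, at 6.94 to 7.10 on the adult arrays.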
